A study of Arabidopsis thaliana with 4 samples.

Results

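The 10 genes described here belong to the SnRK1 energy sensor and of the sugar starvation response, and were followed across 4 RNA-seq libraries of Arabidopsis thaliana seedlings. They were taken from the deposited count table by gene identifier, as 10 of its 37885 genes, and all 10 passed the filter on low counts. They comprise the starvation transcripts SEN1 (also DIN1), DIN2 and DIN10, the kinase subunit genes KIN10 and KIN11, the trehalose-6-phosphate synthase gene TPS1, and the class II genes TPS5, TPS8, TPS10 and TPS11. All 4 libraries came from the prt6-1hyt1-1 double mutant, as whole seedlings that were 7 days old, grown under continuous light on diluted MS agar (a mineral nutrient medium) with no sucrose and harvested untreated. The labels number the libraries as biological replicates 1 to 4 and give neither the number of seedlings in a library nor a control genotype among them. The design sets this mutant beside Col-0, prt6-1 and prt6-1erfvII lines, whose libraries were not analysed here. The levels below therefore describe the double mutant and measure no effect of the mutations.

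SnRK1 is the plant counterpart of yeast SNF1 and animal AMPK, a protein kinase complex that is active when carbon or energy runs short. A catalytic alpha subunit (KIN10 or KIN11) joins beta and gamma-type subunits, and active SnRK1 induces genes of catabolism and represses genes of growth. Trehalose-6-phosphate, made by TPS1, follows the sucrose level of the cell and inhibits SnRK1. The dark-inducible DIN genes rise in darkness and on sugar loss, and SEN1 and DIN6 (ASN1) are widely used as readouts of that state.

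The libraries held 24743656 to 26155431 counts. Replicate 1 stood apart from the others on the first principal component over all genes kept, at -27.5 against 6.20 to 12.6. On the second component replicates 3 and 4 lay at opposite ends, at -22.6 and 16.4, with replicates 1 and 2 at -0.377 and 6.63. The summed level of 9 seed storage genes was 146 CPM (counts relative to library size after TMM scaling) in replicate 2 and 4.44 to 7.04 CPM in the others. Leaf photosynthesis markers summed to between 49287 and 52920 CPM and root markers to between 4904 and 5932 CPM, so both shoot and root transcripts were present in every library. The mutated genes were not used to check the genotype, since no intact control was analysed here, and the table names hup40 where the labels name hyt1. Fewer cells of a type and less RNA per cell cannot be told apart in whole seedlings. Chi-square p-values below ask whether the counts of these 4 libraries differ beyond counting error. They depend on read depth as well as on the size of the spread. Sign-flip p-values ask whether the ratio of a gene pair departs from equal levels over these 4 libraries.

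Members of both families resemble each other, so the coding sequences were first compared for stretches in which a read could not be placed. Of all 50-base words in the exons of the 10 members, and of their relatives RS2, TPS9 and TPS6, 0 occurred at a second place in the TAIR10.1 genome. KIN10 and KIN11 share 81.9% of 507 aligned residues, and their longest identical coding stretch is 29 bases. TPS8 and TPS9, which share 82.9% of 867 aligned residues, have at most 32 identical bases in a row. DIN10 and RS2 share 54.5% of 781 aligned residues and 21 bases. These stretches are shown with 12 flanking bases on each side, 5′ to 3′ on the coding strand, with the identical run in capitals. They start at coding base 718 of KIN10, 652 of KIN11, 1591 of TPS8, 1606 of TPS9, 1711 of DIN10 and 1432 of RS2.
KIN10: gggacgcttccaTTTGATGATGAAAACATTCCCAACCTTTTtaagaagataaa
KIN11: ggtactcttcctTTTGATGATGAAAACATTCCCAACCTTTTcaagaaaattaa
TPS8: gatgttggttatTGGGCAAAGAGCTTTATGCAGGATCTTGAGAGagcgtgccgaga
TPS9: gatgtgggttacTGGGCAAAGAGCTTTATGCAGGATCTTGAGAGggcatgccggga
DIN10: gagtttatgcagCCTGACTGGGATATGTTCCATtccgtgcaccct
RS2: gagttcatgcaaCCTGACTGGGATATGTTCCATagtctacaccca

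By annotated start and end, 4 members overlap other genes. TPS1 overlaps 429 bases of the long noncoding RNA gene AT1G09827, and TPS5 overlaps 128 bases of AT4G17780, both on the opposite strand and with 0 counts. TPS1 also overlaps 99 bases of RHM1 on the opposite strand, a gene with 6007 to 6862 counts, and KIN10 overlaps 13 bases of HYP1 on its own strand. DIN10 overlaps 82 bases of AT5G20260, which had 2 to 5 counts. Whether strand was used in counting is not given in the sources used here, so part of the TPS1 counts could come from RHM1.

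The members spanned levels from the bottom to the top of the expressed genes. In TPM (a level relative to exon length and library size), the order was DIN10, TPS8, SEN1, TPS11, KIN11, KIN10, TPS10, TPS5, TPS1 and DIN2. Their median log2 TPM was 4.76 ± 0.03 (SD, n = 4), beside 3.76 ± 0.03 over the 19940 genes kept. Of the 45 pairs, 40 had the same sign of the within-library log2 TPM ratio in all 4 libraries. The smallest p of the exact two-sided sign-flip test is 2 of 16 sign patterns, or 0.141 after adjustment over the 45 pairs, so no pair could pass 0.05. The 5 pairs with both signs were TPS8 and SEN1, TPS11 and KIN11, TPS11 and KIN10, KIN11 and KIN10, and TPS5 and TPS1, and in each the mean ratio was smaller than its SD.

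**Figure D1:**
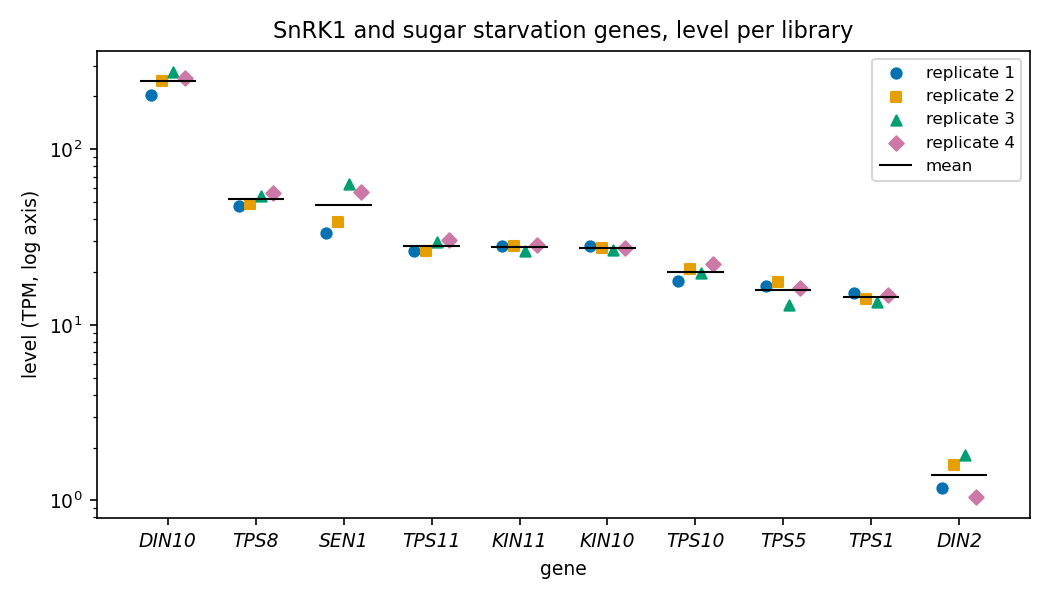
Level of each of the 10 genes in each library, in TPM on a log axis, ordered by mean, with the mean as a line. DIN10 stands at 245 TPM and DIN2 at 1.40 TPM, and the 4 libraries of SEN1 are spread from 33.4 to 63.1 TPM while those of KIN10 lie between 26.8 and 28.2 TPM.

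The starvation transcripts differed widely in level from each other. DIN10 (AT5G20250, chromosome 5, 6833564 to 6836862, plus strand, protein-coding, TAIR10.1) encodes a raffinose synthase-like protein, also named RS6. It had 202.6, 244, 276 and 256 TPM in replicates 1 to 4, a mean of 245 ± 30.9 TPM (SD, n = 4), above 96.9% of the genes kept. Replicate 1 was the lowest and replicate 3 the highest, 1.41-fold apart in CPM. SEN1 (AT4G35770, chromosome 4, 16944878 to 16946266, plus strand) encodes a senescence- and dark-induced protein whose nearest Arabidopsis relative is the sulfurtransferase STR16, at 61.9% identity over 118 residues. It had 33.4, 38.5, 63.1 and 57.5 TPM, a mean of 48.1 ± 14.4 TPM (SD, n = 4). Replicates 3 and 4 were high and replicates 1 and 2 low, with 1.95-fold between the extremes in CPM. DIN2 (AT3G60140, chromosome 3, 22216540 to 22220824, plus strand), a beta-glucosidase gene also named BGLU30, was near the floor of the expressed genes with 43, 62, 70 and 39 counts. Its level of 1.40 ± 0.352 TPM (SD, n = 4) was above 6.47% of the genes kept. DIN2 was lowest in replicate 4, unlike SEN1 and DIN10. Its nearest relative BGLU28 (AT2G44460), another beta-glucosidase gene with 71.3% identity over 579 residues, was also low, with 135, 81, 150 and 129 counts.

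The kinase genes KIN10 and KIN11 were expressed at nearly the same level and were the steadiest of the members. KIN10 (AT3G01090, chromosome 3, 31145 to 34670, minus strand) had 1087, 1117, 1090 and 1073 counts, and KIN11 (AT3G29160, chromosome 3, 11128620 to 11132105, minus strand) had 947, 1003, 929 and 963 counts. Their levels were 27.5 ± 0.559 and 27.8 ± 0.983 TPM (SD, n = 4). The log2 ratio of KIN11 to KIN10 was 0.02 ± 0.04 and was below zero in replicate 3 and above it in the others (two-sided exact p 0.375, adjusted 0.402 over 45 pairs). With the length of the longest transcript in place of merged exons it was -0.12, so which of them is higher depends on the gene model. In CPM, the highest and lowest libraries were 1.03-fold apart for KIN10 and 1.06-fold apart for KIN11.

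TPS1 and TPS5 had the lowest mean levels of the trehalose-6-phosphate synthase members, in an order that was not the same in every library, and TPS1 was the steadiest of the members after the kinase genes. TPS1 (AT1G78580, chromosome 1, 29552340 to 29560912, minus strand), which makes the signal sugar itself, had 1296, 1257, 1210 and 1265 counts and 14.4 ± 0.775 TPM (SD, n = 4). Class II TPS proteins hold synthase-like and phosphatase-like domains, and for most of them no catalytic activity is known. TPS5 (AT4G17770, chromosome 4, 9876172 to 9880386, plus strand) had 905, 1009, 741 and 890 counts and 15.9 ± 2.00 TPM (SD, n = 4), with replicate 3 below the other libraries. TPS8 (AT1G70290, chromosome 1, 26470795 to 26474833, minus strand) was the highest class II member, with 47.6, 48.9, 54.5 and 56.7 TPM. TPS10 (AT1G60140, chromosome 1, 22176934 to 22181740, minus strand) had 17.8, 20.7, 19.7 and 22.2 TPM. TPS11 (AT2G18700, chromosome 2, 8108898 to 8112010, plus strand) had 26.3, 26.5, 29.5 and 30.6 TPM. TPS8, TPS10 and TPS11 were lowest in replicate 1 and highest in replicate 4. In CPM, however, replicates 3 and 4 were nearly equal for TPS8 (120.0 and 120.6) and for TPS11 (57.1 and 57.2). In Arabidopsis, TPS8 to TPS11 transcripts are known to fall and TPS5 transcript to rise when sugar is supplied.

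The other TPS genes of the family were listed beside the members. TPS7 was the highest TPS gene, at 59.5 ± 0.892 TPM (SD, n = 4), and TPS9 was at 35.5 ± 3.12 TPM and TPS6 at 11.8 ± 0.272 TPM. The class I genes TPS2 and TPS3 had 0 counts in every library, which allows up to 0.0295 CPM each (3 of 101650821 counts, counting error only). Whether their reads could fit a second place in the genome was not examined. TPS4 had 0, 0, 0 and 5 counts. TPS1 was thus the only class I gene with more than 5 counts in a library. Class II proteins here shared 58.5% to 71.4% of residues with each other among the members and 33.5% to 35.4% with TPS1.

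**Figure D2:**
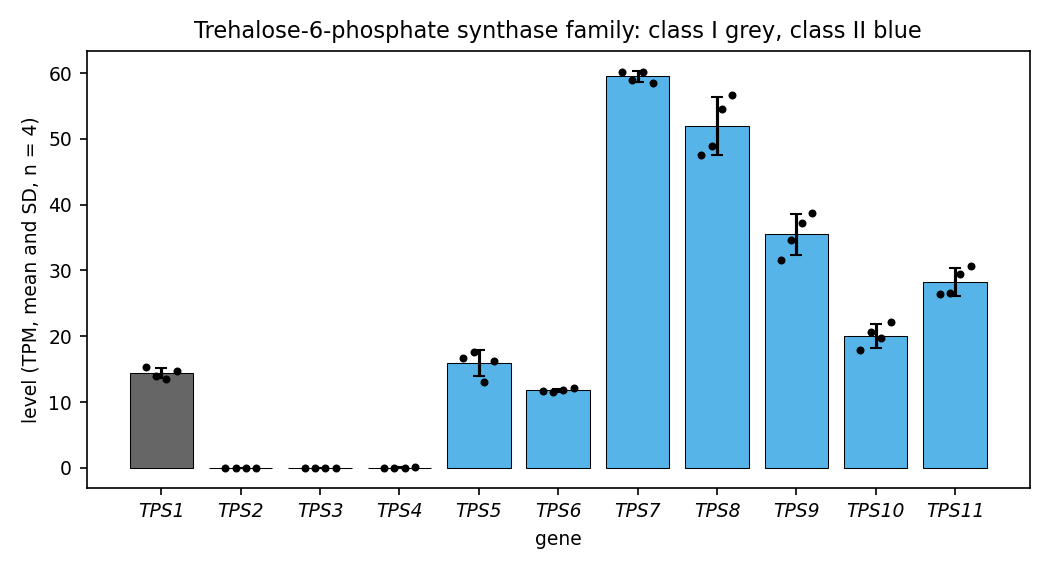
Level of all 11 trehalose-6-phosphate synthase genes in TPM, as mean bars with SD over 4 libraries and a point per library, class I in grey and class II in blue. TPS7 and TPS8 are the highest at 59.5 and 51.9 TPM, and of class I only TPS1 rises from the axis, at 14.4 TPM.

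Variation between the libraries was called for the starvation transcripts and the class II TPS members, and not for the kinase genes and TPS1, at a share close to that of genes with similar counts. Counts varied by more than counting error for 7 of the 10 members (chi-square test of homogeneity, Benjamini-Hochberg adjusted p under 0.05 over 20687 genes), beside 42.8% of all genes tested. The call comes more easily at high counts. Of the 9 members other than DIN2, 6 had it, beside 62.5% of the 5435 genes in their count range. The 3 members without the call were KIN10 (adjusted p 0.953), KIN11 (0.694) and TPS1 (0.227). DIN10 had an adjusted p of 8.56e-150, SEN1 of 2.33e-59, TPS8 of 3.12e-12, TPS5 of 4.57e-07, TPS10 of 1.45e-06, TPS11 of 0.000171 and DIN2 of 0.0242. The call of TPS10 was lost without replicate 1 (adjusted p 0.162), that of TPS5 without replicate 3 (0.153), and that of DIN2 without replicate 3 (0.145) or 4 (0.11). SEN1, DIN10, TPS8 and TPS11 kept the call whichever library was left out.

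The biological coefficient of variation (BCV, the spread between libraries beyond counting error in edgeR) lay above the trend of genes at the same expression for the same 7 members, beside 34.1% of the genes kept. Both measures come from the same counts, so they are not separate support, and no share matched to the members' counts was taken. SEN1 had a BCV of 0.153 against a trend of 0.0612, the rank 53 of 19940 genes by that excess. DIN10 had 0.0825 against 0.0555, but without replicate 1 its BCV was 0.0532 against a trend of 0.0498. With DESeq2 the value was 0.304 for SEN1 and 0.138 for DIN10, against trends of 0.0707 and 0.0479. TPS5 had 0.0776 against 0.0623, TPS8 0.0644 against 0.0573, TPS10 0.0669 against 0.0596 and TPS11 0.0627 against 0.0597. TPS5 fell under the trend without replicate 3 (0.0588 against 0.0616) and TPS10 without replicate 1 (0.0490 against 0.0509). KIN10 had 0.0522 against 0.0608, KIN11 0.0538 against 0.0617 and TPS1 0.0545 against 0.06. The spread of DIN2, at 0.184, was close to the trend of 0.168 for a gene with so few counts. With DESeq2 it lay under the trend, at 0.240 against 0.242.

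**Figure D3:**
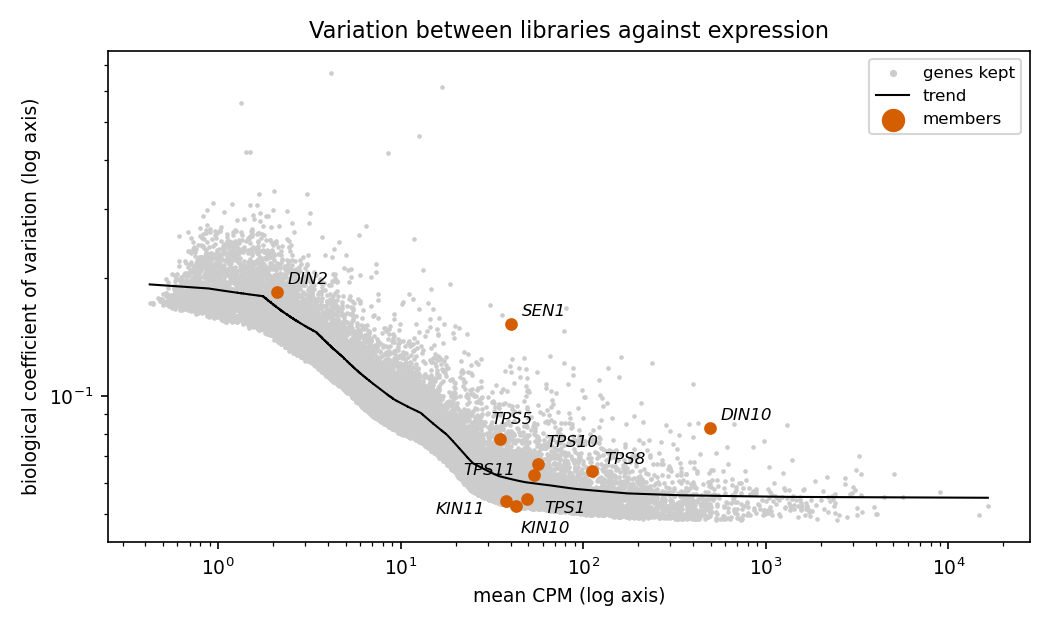
BCV of each gene kept (grey) against its mean CPM, both on log axes, with the trend as a black line and the 10 members in orange. SEN1 at 0.153 and DIN10 at 0.0825 lie above the trend, and KIN10, KIN11 and TPS1 lie under it.

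By CPM, replicate 1 held the lowest value of 5 members, SEN1, DIN10, TPS8, TPS10 and TPS11, where 28.6% of the genes kept were lowest in that library. Replicate 3 held the highest value of SEN1, DIN2 and DIN10, that is 3 of 10 members beside 26.4% of the genes kept. Both held for SEN1 and DIN10, beside 10.7% of the genes kept, or 5.71% when the call of variation was also required. Of the other members TPS1, TPS5 and KIN11 were lowest in replicate 3 (25.8% of the genes kept) and KIN10 and DIN2 in replicate 4 (22.8%), and 0 were lowest in replicate 2 (22.8%). The highest value lay in replicate 1 for KIN10 and TPS1 (28.8%), in replicate 2 for KIN11 and TPS5 (22.8%) and in replicate 4 for TPS8, TPS10 and TPS11 (22%). For TPS8 and TPS11 replicate 3 was nearly as high. The kinase genes, which lacked the call of variation, changed place with the measure. In TPM, KIN10 was lowest in replicate 3 and KIN11 highest in replicate 4. SEN1 deviated from its own mean by -0.50, -0.25, 0.47 and 0.28 on the log2 CPM scale in replicates 1 to 4, and DIN10 by -0.29, 0.03, 0.21 and 0.05. TPS5 went the other way in replicate 3, at -0.25, where it was the lowest. KIN10 stayed within -0.02 and 0.01. Replicate 1 also stood apart over all genes on the first principal component, and replicate 3 lay at the low end of the second. The part of these differences in the values here was not tested. Of the 6 root markers 3 were lowest in replicate 1 and 2 highest there, and 3 were lowest in replicate 3 and 1 highest there. In replicate 3 IRT1 deviated by -0.50 and FRO2 by -0.51, and TIP2;3 by 0.50. PYK10 alone gave 4581 of the summed 4904 CPM of the root markers in replicate 1.

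**Figure D4:**
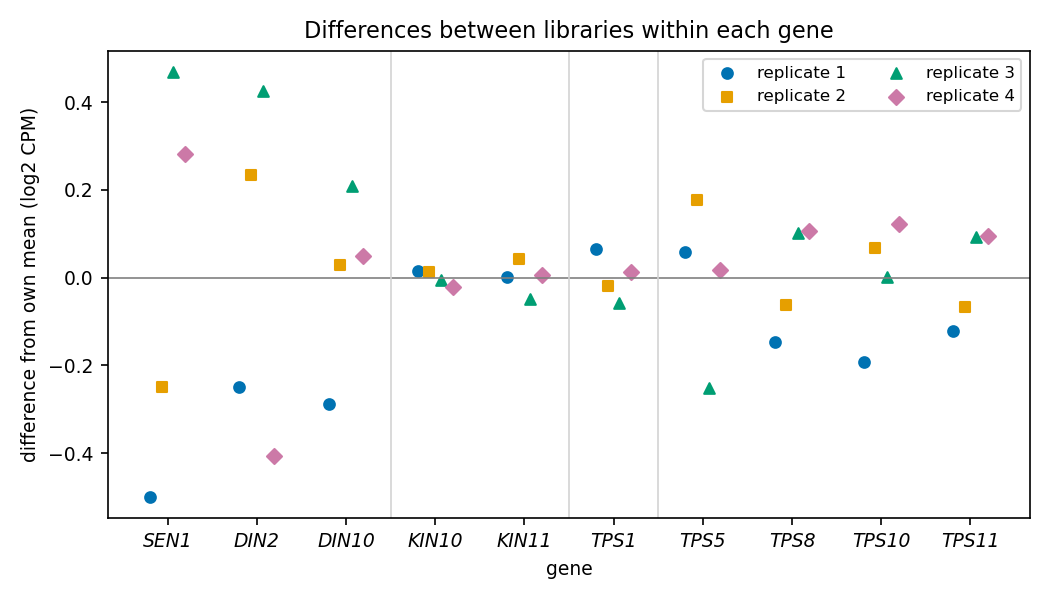
Difference of each library from the gene's own mean, in log2 CPM, for the 10 genes grouped as starvation transcripts, kinase genes, TPS1 and class II TPS genes. SEN1 ranges from -0.50 in replicate 1 to 0.47 in replicate 3, whereas both kinase genes stay within 0.05 of zero.

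Genes with the most similar pattern over the 4 libraries were sought among 12505 others with at least 10 CPM, by the root mean square difference of the log2 CPM deviations. DIN10 was matched most closely by RS2 (AT3G57520, also SIP2), which is also its nearest protein relative and a raffinose synthase family gene. RS2 had 5769, 7382, 8350 and 7461 counts beside 10049, 12868, 14400 and 12855 for DIN10. The difference was 0.00783 on the log2 scale, under the counting error of 0.0215 for this pair and beside a median of 0.19 over all candidates. The next were MIOX2 (AT2G19800), a myo-inositol oxygenase gene, at 0.0124 and TED6 (AT1G43790), a gene of tracheary element differentiation, at 0.0126, both also under their counting errors of 0.0358 and 0.0749. SEN1 was matched most closely by BT1 (AT5G63160), which encodes a protein with BTB and TAZ domains, with 2837, 3885, 5172 and 4542 counts and a difference of 0.117. ASN1 (AT3G47340, also DIN6), an asparagine synthetase gene, followed at 0.152 with 191, 306, 399 and 393 counts, and AT3G24460 at 0.156. These 3 differences exceeded their counting errors of 0.0522, 0.0961 and 0.0975. The median over all candidates was 0.397 for SEN1. The matches were picked as the closest of 12505 genes, which favours differences under the counting error. The counting error also takes no account of centring on each gene's mean, so it is somewhat too large. With 4 libraries such a likeness is a description of these samples.

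DIN10, RS2 and SEN1 were lowest in replicate 1 and highest in replicate 3, as were 10.7% of the genes kept. RS2 had been picked for its likeness to DIN10, so its place in this group was given in advance. The 250 bases before the annotated starts of these genes were examined for elements bound by bZIP factors or named from sugar starvation. The elements were the G-box CACGTG, the ACGT core that the G-box contains, ACTCAT and TATCCA, searched on both strands, and matches are in capitals, 5′ to 3′ on the gene's strand.
SEN1, chr4:16944628-16944877, plus strand: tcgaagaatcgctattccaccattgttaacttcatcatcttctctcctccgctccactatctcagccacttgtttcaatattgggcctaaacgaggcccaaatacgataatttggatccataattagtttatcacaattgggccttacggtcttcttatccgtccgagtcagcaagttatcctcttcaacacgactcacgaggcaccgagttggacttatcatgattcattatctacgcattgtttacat
DIN10, chr5:6833314-6833563, plus strand: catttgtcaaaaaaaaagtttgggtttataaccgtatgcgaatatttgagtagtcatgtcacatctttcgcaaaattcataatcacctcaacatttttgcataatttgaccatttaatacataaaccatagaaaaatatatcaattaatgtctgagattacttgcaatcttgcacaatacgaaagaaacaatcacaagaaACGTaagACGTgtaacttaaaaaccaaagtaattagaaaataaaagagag
RS2, chr3:21293172-21293421, minus strand: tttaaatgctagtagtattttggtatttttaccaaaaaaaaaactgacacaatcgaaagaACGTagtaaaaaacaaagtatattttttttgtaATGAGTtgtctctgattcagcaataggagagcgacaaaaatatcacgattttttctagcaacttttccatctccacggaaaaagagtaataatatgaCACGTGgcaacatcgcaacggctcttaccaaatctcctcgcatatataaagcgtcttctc

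RS2 held a G-box whose first base lies 60 bases before the start, an element found in the same window of 6.49% of 27443 protein-coding genes, and an ACTCAT element on the opposite strand, found in 12.3%. DIN10 held 2 ACGT cores, 50 and 43 bases before the start, and SEN1 held none of the elements. Over the 10 members, 0 had a G-box, 0 a C-box GACGTC, 1 the ACTCAT element (TPS5), 2 the TATCCA element (TPS10 and TPS11) and 4 the ACGT core, beside 2.27%, 13.6% and 44.1% of all windows for the C-box, TATCCA and the core. The sequences are from the TAIR10.1 assembly, whereas the submitters name TAIR10.

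Other starvation-induced genes varied about as often as the members. Of 20 listed genes, 14 varied by more than counting error, beside 42.8% of all genes tested, and 9 did without replicate 1, beside 26.6%. The share was 62.5% for genes in the count range of the 9 members other than DIN2. No share matched to the counts of this list, or of the lists below, was taken. Of the 14, 9 were lowest in replicate 1, 9 were highest in replicate 3 and 8 were both, beside 32.8%, 28.5% and 13.2% of all genes with the call. The 8 were ASN1, AT3G15450, DRM2, BGAL4, MCCA, BCAT2, DIN4 and PRODH1, and SEN1 and DIN10 shared this order. It was the order already seen in SEN1 and DIN10 in the same libraries, and other pairs of extremes were not counted. The list was also chosen with earlier results of these data known. These counts are therefore a description and no separate support for a shared order. BCAT2 (AT1G10070), a branched-chain amino acid transaminase gene, was the most variable of the list with 54, 100, 183 and 129 counts, a 3.33-fold range in CPM (adjusted chi-square p 1.75e-14). AT3G15450 was the highest at 623 ± 88.7 TPM (SD, n = 4), with 9243, 9614, 12611 and 11517 counts. DIN11 (AT3G49620), the lowest at 1.59 ± 0.502 TPM (SD, n = 4), went another way, with 46, 28, 31 and 52 counts. The median deviation of the list was -0.10 in replicate 1, -0.03 in replicate 2 and 0.07 in replicates 3 and 4, beside values within 0.01 of zero over all genes kept.

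**Figure D5:**
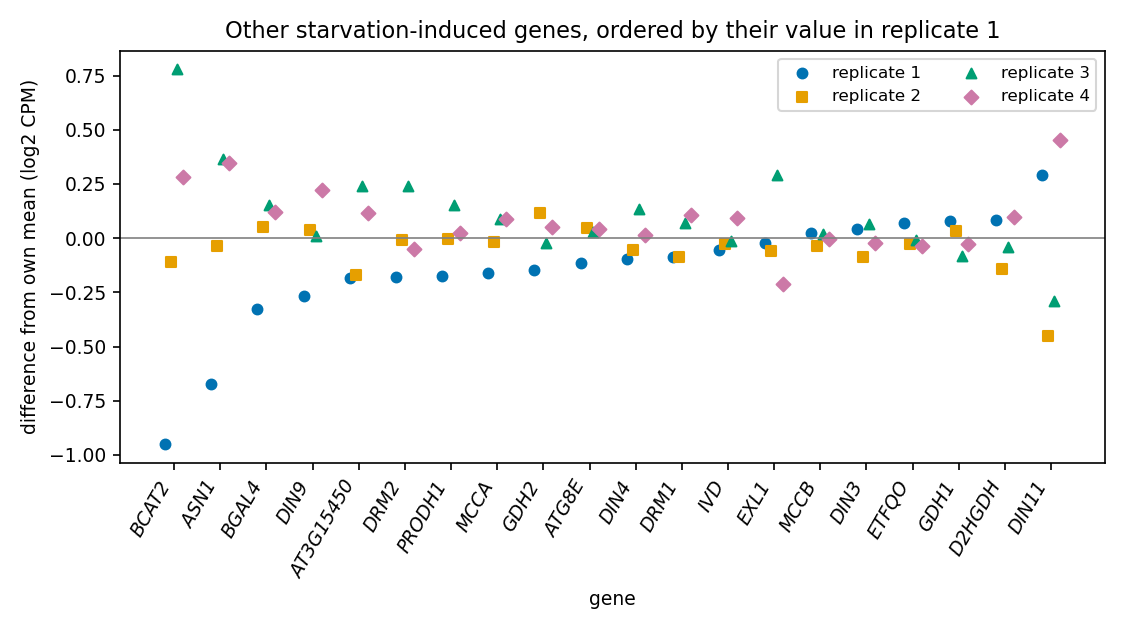
Difference of each library from the gene's own mean, in log2 CPM, for 20 other starvation-induced genes ordered by their value in replicate 1. BCAT2 and ASN1 lie lowest in replicate 1, and 12 of the 20 genes have their lowest value there, beside 28.6% of the genes kept.

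Among the remaining SnRK1 subunits and the kinases that activate the complex, 4 of 7 tested genes varied by more than counting error, beside 42.8% of all genes tested, and 2 did without replicate 4, beside 35.7%. The most variable was AKINBETA1 (AT5G21170), a beta subunit gene, with 663, 759, 931 and 806 counts (adjusted chi-square p 1.92e-08), low in replicate 1 and high in replicate 3. The gamma-type gene KING1 (AT3G48530) was the highest at 71.4 ± 4.64 TPM (SD, n = 4), and was lowest in replicate 1 and highest in replicate 2. SnRK1.3 (AT5G39440), a further alpha subunit gene, had 0 counts in every library. The hybrid subunit gene SNF4 and the activating kinase gene GRIK2 had the call, and AKINBETA2, AKINBETA3 and GRIK1 did not.

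Of 9 bZIP transcription factor genes of groups C and S1, which include SnRK1 targets and partners, 4 varied by more than counting error, beside 42.8% of all genes tested, and 2 did without replicate 3, beside 30.9%. All 4 were lowest in replicate 1, beside 32.8% of all genes with the call. BZIP1 (AT5G49450) had 572, 622, 795 and 673 counts (adjusted chi-square p 1.54e-07), and BZIP63 (AT5G28770), which SnRK1 phosphorylates, had 1154, 1247, 1423 and 1311 counts (adjusted chi-square p 3.69e-05). BZIP2 (AT2G18160) was the highest at 166 ± 9.16 TPM (SD, n = 4), and BZIP44 (AT1G75390) the lowest at 14.0 ± 0.689 TPM. The fourth gene with the call was BZIP25.

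Enzymes that remove trehalose-6-phosphate and trehalose stood lower. The 10 phosphatase and trehalase genes kept, of 11 listed, had a median of 8.10 TPM, beside 27.6 TPM for the members and 13.6 TPM for all genes kept. Counts varied for 4 of these 10, beside 42.8% of all genes tested, and for 2 without replicate 1 (beside 26.6%) or without replicate 4 (beside 35.7%). TPPA (AT5G51460) was the highest at 25.2 ± 1.87 TPM (SD, n = 4), and TPPC (AT1G22210) had 0 counts. The trehalase gene TRE1 (AT4G24040) gave 239, 223, 208 and 142 counts (adjusted chi-square p 5.08e-05), with replicate 4 the lowest. TPPI (AT5G10100) had 144, 99, 116 and 110 counts (adjusted chi-square p 0.0301). Of the other TPS genes, TPS9 varied (1492, 1737, 1850 and 1850 counts, adjusted chi-square p 3.48e-08), lowest in replicate 1 like its relative TPS8, and it lost the call without replicate 1. In the raffinose synthase family, RS5 (AT5G40390), with 909, 1102, 861 and 1008 counts, had its lowest value in replicate 3, where RS2 and DIN10 were highest. RS4 (AT4G01970) was the lowest of that family with 16, 37, 7 and 18 counts, and 3 of its 4 listed genes varied, beside 42.8% of all genes tested.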

How the data were processed

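Poly(A) RNA of whole seedlings was sequenced in 4 libraries of a single group. The authors deposited raw read counts per gene, made with HISAT2 2.1.0 and featureCounts 1.6.0 on TAIR10, per the submitters' processing notes. The sources used here do not state the annotation release, the strand setting or the treatment of reads with several positions. Gene positions and exon lengths came from TAIR10.1, to which 37882 identifiers matched and 3 did not. Counts were scaled by TMM in edgeR 4.0.16 (R 4.3.3), and 19940 genes passed its expression filter. TPM used the count plus 0.5 over merged exon length. BCV came from an intercept-only edgeR fit. A chi-square test compared each gene's 4 counts with its share of the scaled library sizes, for genes expected to have 10 or more counts in each library, with Benjamini-Hochberg adjustment at 0.05, and was tested on simulated data. Proteins were translated from the annotation and compared with BLASTP 2.17.0. DESeq2 1.42.0 gave alternatives. Columns were matched to labels by prt6-1 and the replicate number, and the title of replicate 4, which exchanges 2 characters of the genotype, was read as a misprint.

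The members and lists were chosen with earlier results of these data known. Named genes were all members, the highest, the lowest and the 2 most variable genes of each list, the 3 genes most like each of the 2 most variable members, and each member's nearest protein relative. Genes named beyond these were chosen after their values were seen.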

Additional observations from a re-analysis of the deposited data

Results flagged for a closer look

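Of 68 sets of 4 values examined, 4 had a library far from the other 3 by Dixon's ratio (the gap to the nearest value over the whole range, above its critical value for 4 samples), and chance flags about 1 set in 20. All 4 concern seed storage genes, which mark seed tissue, and replicate 2. The ratio was 0.941 for CRA1 (159, 1394, 86 and 102 counts), 0.983 for CRU2 (1, 61, 0 and 0 counts), 0.98 for OLEO2 (10, 105, 12 and 11 counts) and 0.982 for the summed CPM of the 9 seed storage genes. No member was flagged, and without replicate 2 the same number of members, 7, varied by more than counting error.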

How the results depend on the processing

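No paired analysis was possible because there is a single group. The count of varying members stayed at 7 with DESeq2 size factors, with total counts and without the filter, and was 5 to 7 when each library was left out. The count of varying genes over the 8 pathway lists was 35 of 64 tested, and 25 to 30 when each library was left out, while the share of all genes went from 42.8% to between 26.6% and 35.7%. Members with a BCV above the trend numbered 6 with DESeq2 dispersions and 6 to 7 when each library was left out. Without length normalisation the median of the members was log2 CPM 5.58, SEN1 to TPS11 reversed to -0.46 and KIN10 to TPS10 to -0.39, and TPS5 to TPS1 went from 0.14 to -0.51, since lengths differ between the genes. With total counts, 1 member was lowest in replicate 4 and 1 was highest in replicate 2, in place of 2 each. The scalings moved the median gene by at most 0.0212 on the log2 scale. Depth limits DIN2, with 39 to 70 counts.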

Other observations

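The TOR kinase, which promotes growth when nutrients are ample and is opposed by SnRK1, was followed through 5 genes of its complex and its S6 kinases. TOR (AT1G50030) had 1523, 1458, 1266 and 1310 counts (adjusted chi-square p 2.05e-06), lowest in replicate 3, and S6K2 (AT3G08720) had 395, 389, 339 and 299 counts (adjusted chi-square p 0.00285). LST8-1 (AT3G18140) was the highest of the 5 genes at 56.4 ± 2.41 TPM (SD, n = 4). Of the 5, 2 varied by more than counting error, beside 42.8% of all genes tested, and 1 did without replicate 4, beside 35.7%.

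Markers of leaf senescence ranged from 0 to 3698 counts in a library. SAG12 (AT5G45890) had 0 counts in every library, which allows up to 0.0295 CPM (counting error only), and NAP (AT1G69490) had 47, 50, 79 and 37 counts. NYC1 (AT4G13250), a chlorophyll b reductase gene, was the highest of the list at 101 ± 4.36 TPM (SD, n = 4). Of 6 markers tested 3 varied, beside 42.8% of all genes tested, and 0 did without replicate 3, beside 30.9% (chi-square test, adjusted over all genes).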
